A study of Mus musculus with 9 samples.

Results

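The genes described here encode the proteins of the mouse cytosolic ribosome. They were taken by symbol: every row found in both deposited count tables whose symbol is Rpl or Rps followed by a number and at most 1 letter, together with Rplp0, Rplp1, Rplp2 and Rpsa. This gave 83 of the 52160 symbols used, 32 of the small subunit (Rps) and 51 of the large subunit (Rpl). The measured material was polyadenylated RNA of whole kidney from mice of the C57Bl/6N background at 16 weeks of age, in 3 groups of 3 libraries. The WT mice came from a commercial breeder. The ΔPod mice lack Ybx1 in podocytes, the filter cells of the glomerulus. The K2A mice carry, specifically in podocytes, a Ybx1 whose acetylation-dependent secretion is lost because both lysine residues it needs were replaced by alanine. Ybx1 encodes Y-box binding protein 1, a protein that binds DNA and messenger RNA. The driver of the podocyte restriction, the sex of the mice and any batch are not given in the sources used here, and the labels do not say whether the libraries of a group came from separate animals, so the p-values measure only the spread between these libraries. Both alleles act in podocytes while all kidney cells were sequenced, and in such bulk tissue fewer cells of a type and less RNA per cell cannot be told apart.

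A ribosome joins a small subunit, which holds the messenger RNA and decodes it, to a large subunit, which makes the peptide bond and carries the exit tunnel of the new chain. Each ribosome needs about equal numbers of its proteins, and cells usually tune their output together through translation: most ribosomal protein messenger RNAs begin with a C followed by a run of pyrimidines, the 5′ terminal oligopyrimidine (TOP) tract, through which the mTORC1 kinase and the RNA-binding protein Larp1 control them. These messenger RNAs are short, stable and abundant, and their genes have left many processed pseudogenes in the genome.

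The libraries held 30776806 to 46852490 gene counts. Ybx1, the targeted gene, was at 1189.7, 1585 and 1185 CPM (gene counts scaled to a common library total, with edgeR's trimmed mean of M-values) in WT 1, 2 and 3, at 1167, 881 and 605 in ΔPod 1, 2 and 3 and at 1078, 1152 and 554 in K2A 1, 2 and 3. The mutant libraries all lay below the WT libraries, but neither difference passed the test (log2 fold change -0.58 with adjusted p = 0.465 for ΔPod and -0.51 with adjusted p = 0.725 for K2A, edgeR). Such a whole-kidney level sums all cell types. All 83 genes were found in the GENCODE annotation of mm10, 80 as protein-coding and 3 (Rpl6l, Rpl32l and Rps4l) as pseudogenes. They lie on 19 chromosomes, 14 of them on chromosome 7 and 4 on the X. The median main transcript of the protein-coding members is 882 bases long, against 2949.5 bases for the 14394 tested protein-coding genes. Libraries differed in how counts fell on long and short transcripts. The slope of log2 CPM, relative to each gene's mean, on log2 transcript length over 17515 other genes was 0.25, -0.08 and 0.29 in WT 1, 2 and 3, -0.47, -0.17 and 0.33 in ΔPod 1, 2 and 3 and -0.25, -0.27 and 0.36 in K2A 1, 2 and 3. A negative slope means that short transcripts took more of the counts.

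Sequences around the start sites are shown for the pyrimidine run for which these genes are known, and so that members with the steadiest and the least steady levels can be read side by side. The first 8 have a run of at least 9 bases, longer than most members have, and the last 2, Rplp0 and Rps3, have a short one. Each line gives 30 bases before the annotated start and the first 20 transcribed bases, from RefSeq promoters of GRCm38.p6, 5′ to 3′ on the gene's strand. Capitals mark the longest pyrimidine run that reaches within 5 bases of the start. They come from Rps6 (chr4:86857348-86857397, minus strand), Rps27 (chr3:90213629-90213678, minus), Rps24 (chr14:24490648-24490697, plus), Rpl15 (chr14:18270967-18271016, minus), Rpl35 (chr2:39005112-39005161, minus), Rpl13a (chr7:45128726-45128775, minus), Rpl28 (chr7:4792935-4792984, plus), Rpl4 (chr9:64173357-64173406, plus), Rplp0 (chr5:115559437-115559486, plus) and Rps3 (chr7:99483690-99483739, minus).
Rps6: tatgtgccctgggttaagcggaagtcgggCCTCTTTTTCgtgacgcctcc
Rps27: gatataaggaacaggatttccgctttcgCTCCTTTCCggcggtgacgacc
Rps24: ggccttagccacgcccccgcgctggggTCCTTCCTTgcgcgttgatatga
Rpl15: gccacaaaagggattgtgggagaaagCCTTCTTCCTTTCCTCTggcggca
Rpl35: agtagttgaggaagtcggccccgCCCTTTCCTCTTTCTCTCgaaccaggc
Rpl13a: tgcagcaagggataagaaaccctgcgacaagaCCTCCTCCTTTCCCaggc
Rpl28: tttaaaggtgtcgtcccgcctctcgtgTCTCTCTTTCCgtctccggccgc
Rpl4: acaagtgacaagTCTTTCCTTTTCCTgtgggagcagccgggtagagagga
Rplp0: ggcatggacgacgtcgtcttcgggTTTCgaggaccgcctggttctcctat
Rps3: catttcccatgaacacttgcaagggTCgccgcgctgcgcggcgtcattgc
The run is 10 bases in Rps6, 9 in Rps27 and Rps24, 17 in Rpl15, 18 in Rpl35, 14 in Rpl13a, 11 in Rpl28, 14 in Rpl4, 4 in Rplp0 and 2 in Rps3. In Rpl13a it begins 2 bases after the annotated start, and in Rpl4 it lies upstream, beginning 18 bases before it. Rps24 has another annotated start, not printed, whose run is 2 bases.

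RefSeq promoters matched 61 of the 83 genes, with 73 start sites. A C at the start followed by at least 4 pyrimidines was found at 14 of the 73 sites (19.2%), against 2.51% of all 32851 promoters in the table. A pyrimidine run of at least 8 bases within 5 bases of the start was found at 24 sites (32.9%), against 9.72% of all promoters. The median longest run was 5 bases in the members and 3 in all promoters. Further words were counted on both strands of the 300 bases from 250 before to 50 after the start. CCGGAAG, an ETS-type word, was in 35.6% of the members' promoters and 8.86% of all. CTTTCC was in 49.3% and 26.6%, GGGCGG, the GC box, in 57.5% and 35.7%, and AAGATGG, a YY1-type word, in 15.1% and 6.34%. CCAAT was in 30.1% of the members' promoters and 37.4% of all, and the Y-box word CTGATTGG, which holds CCAAT on its other strand, was in 2.74% and 4.10%. A match is only a description of letters. Annotated starts were not checked against the first bases of the kidney transcripts. A short run there, as in Rplp0 and Rps3, thus does not show that a TOP tract is absent. The length of the pyrimidine run went with no order in how much a gene varied between libraries (Spearman's rho -0.04 over 59 members, which share the libraries).

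Ribosomal protein genes took 1.14%, 2.39% and 1.07% of all gene counts in WT 1, 2 and 3. Their share was 7.77%, 4.19% and 1.11% in ΔPod 1, 2 and 3. In K2A 1, 2 and 3 it was 3.77%, 3.84% and 0.975%. ΔPod 1 was the highest of the 9 libraries and K2A 3 the lowest. ΔPod 3 lay inside the WT range and K2A 3 just below it, the other 4 mutant libraries lay above it, and the spread within ΔPod was larger than any difference between groups. The means were 1.54% ± 0.742 in WT, 4.35% ± 3.33 in ΔPod and 2.86% ± 1.63 in K2A (SD, n = 3 each). ΔPod minus WT was 2.82 percentage points (exact two-sided permutation p = 0.3), K2A minus WT 1.33 (exact permutation p = 0.4) and K2A minus ΔPod -1.49 (exact permutation p = 0.4). After Benjamini-Hochberg adjustment over the 3 comparisons each p was 0.4, and 3 libraries against 3 cannot give a p below 0.1. Without ΔPod 1 the ΔPod difference from WT was 1.11 points and K2A minus ΔPod turned to 0.214 points.

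The share was lower in the libraries where long transcripts took more of the counts. The 4 libraries with a positive slope (WT 1, WT 3, ΔPod 3 and K2A 3) had shares from 0.975% to 1.14%, and the 5 with a negative slope from 2.39% to 7.77%. Each of these sets holds a library of every group. In the set with a positive slope, ΔPod 3 lay between WT 3 and WT 1, and K2A 3 lay below both. In the other set, the only WT library, WT 2, had the lowest share. It also had the slope nearest 0 in that set (-0.08), so its libraries were not matched in slope. Marker sums of several cell types also differed between libraries. The 7 podocyte markers summed to 504, 252 and 510 CPM in WT 1, 2 and 3. They summed to 131, 232 and 826 in ΔPod and 264, 247 and 611 in K2A. In each group the library with the highest share had the lowest podocyte sum. This was not particular to podocytes. The 6 endothelium markers were likewise lowest in WT 2 (340 CPM), ΔPod 1 (155) and K2A 2 (379, close to 382 in K2A 1). So were the 5 thick limb and distal tubule markers (4629, 2589 and 3967 CPM). No other marker list kept this order in every group. Fibroblast markers kept another order, with 144, 87.8 and 168 CPM in WT, 200, 129 and 147 in ΔPod and 147, 121 and 77.3 in K2A. The 6 adipocyte markers summed to 31.7 to 79.6 CPM in WT, 22.8 to 525 in ΔPod and 40.7 to 1143 in K2A, lowest in ΔPod 3 and highest in K2A 2. Each had counts in some library, but the WT sums do not mean that each was expressed there. Their median log2 CPM, relative to each gene's mean, was -3.41, -3.41 and -2.96 in WT 1, 2 and 3. It was 4.38, 0.39 and -2.46 in ΔPod and 4.89, 6.40 and -3.40 in K2A. The 10 immune cell markers summed to 42.9 to 85.6 CPM in WT, 51.4 to 243 in ΔPod and 25.9 to 180.2 in K2A. The 8 proximal tubule markers, which define most of the kidney's mass, were all present and summed to 10165 to 17269, 5195 to 13604 and 6151 to 7908 CPM. The part of cell makeup and of transcript length in the share was not tested.

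**Figure D1:**
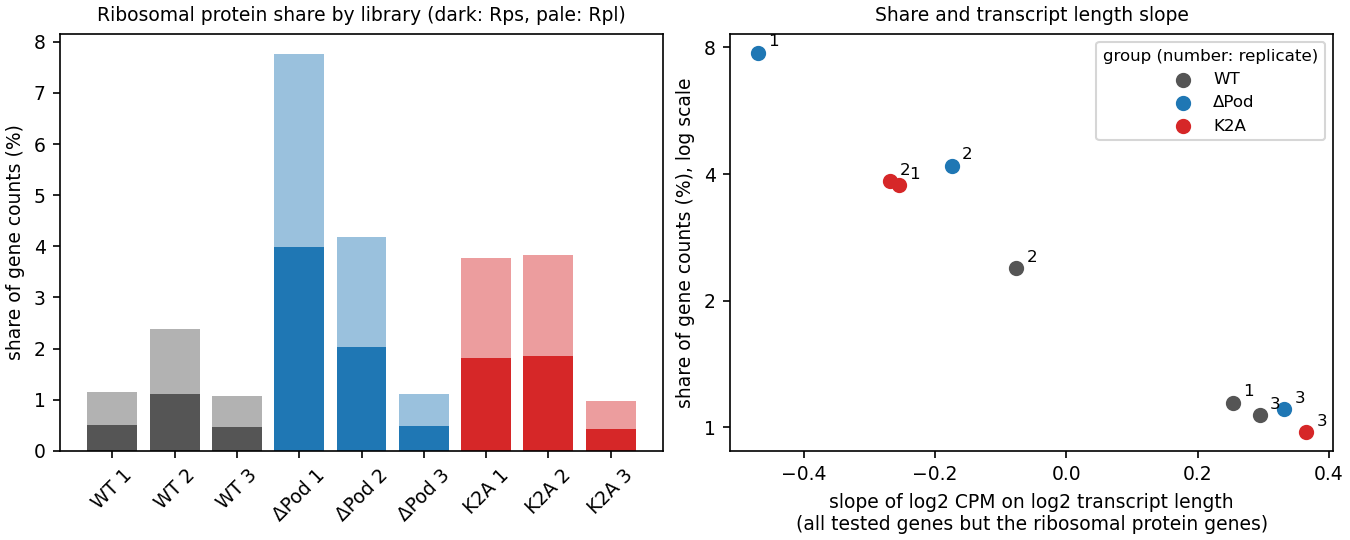
Left, percent of all gene counts on ribosomal protein genes in each of the 9 libraries, stacked as small subunit (dark) and large subunit (pale) genes. Right, the same share on a log scale against the library's slope of log2 CPM on log2 transcript length, with colours for groups and numbers for replicates; the 4 libraries with a positive slope lie between 0.975% and 1.14%.

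The 2 subunits did not move by the same factor. Counts on small subunit genes divided by counts on large subunit genes were 0.799, 0.861 and 0.773 in WT 1, 2 and 3, 1.05, 0.938 and 0.763 in ΔPod 1, 2 and 3 and 0.940, 0.939 and 0.748 in K2A 1, 2 and 3. Only ΔPod 1 had more counts on small than on large subunit genes, and the 3 libraries with the lowest total share (K2A 3, WT 3 and ΔPod 3) also had the 3 lowest ratios. Groups overlapped in this ratio.

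Of the 83 genes, 81 passed the filter on low counts and were tested among 18067 genes. Their levels spanned a highest-to-lowest ratio over the 9 libraries of 1.48 (Rpl4) to 27.2 (Rpl17), with a median of 9.50. This ratio was over 8 for 45 genes, from 4 to 8 for 20 and under 4 for 16. Among 3085 genes at or above the members' lower range of levels the median was 3.38, and 17.3% were over 8. Small subunit genes had a median ratio of 12.1 (22 of 32 over 8) and large subunit genes 7.82 (23 of 49 over 8). ΔPod 1 was the highest library for 75 of the 81 genes, K2A 2 for 5 and WT 2 for Rpl3l, while K2A 3 was the lowest for 74. Among the 78 protein-coding members, the ratio had weak rank correlations with the length of the main transcript (Spearman's rho -0.07), coding length (-0.13), number of exons (0.12), annotated pseudogenes (0.07) and mean level (0.23), given as descriptions over genes that share the libraries.

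**Figure D2:**
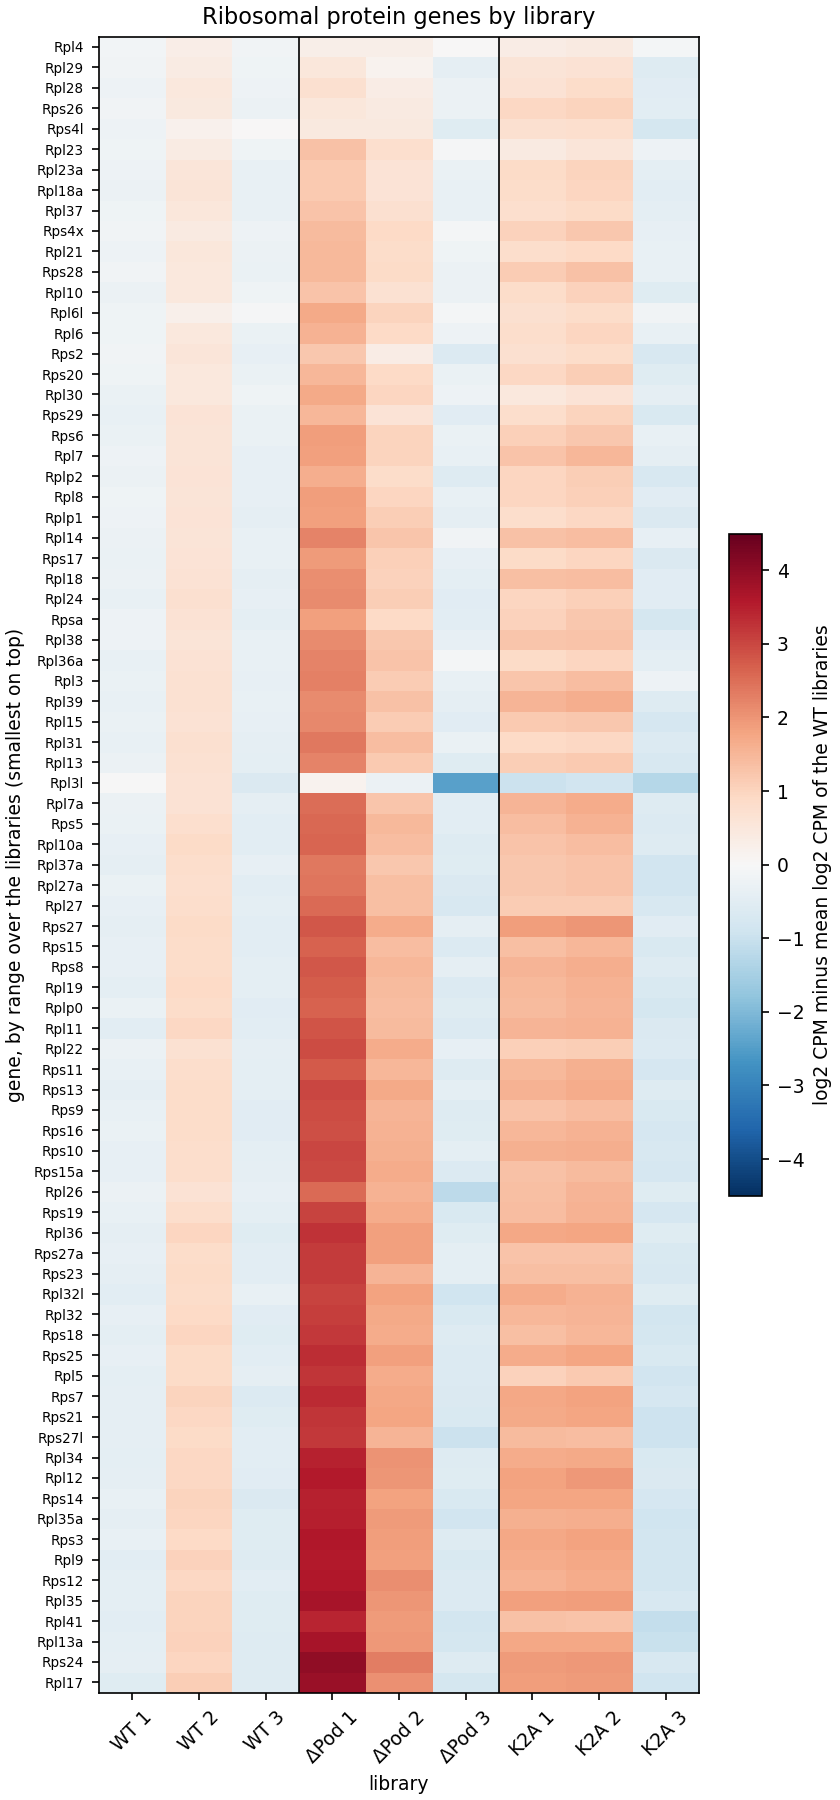
Log2 CPM of the 81 tested ribosomal protein genes (rows, smallest range over the libraries on top) in the 9 libraries (columns), relative to each gene's mean log2 CPM in the WT libraries. ΔPod 1 is the highest library for 75 genes and K2A 3 the lowest for 74; Rpl4 at the top changes least, and Rpl3l follows another order.

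Among small subunit genes, Rps3, whose protein lines the entry of the messenger RNA channel, was at 511, 1217 and 446 CPM in WT 1, 2 and 3, at 7884, 2429 and 436 in ΔPod 1, 2 and 3 and at 2178, 2264 and 372 in K2A 1, 2 and 3. ΔPod 3 and K2A 3 stood below every WT library, while the other mutant libraries stood above them all. Rps24, mutated in some patients with Diamond-Blackfan anaemia, had 137, 356 and 120.0 CPM in WT, 2883, 879.6 and 119.6 in ΔPod and 678, 705 and 109 in K2A. It had the second widest range of all members (26.5-fold). Rps19, the gene most often mutated in that anaemia, had 117, 253 and 108 CPM in WT, 1216, 471 and 90.5 in ΔPod and 387, 432 and 86.4 in K2A. The groups overlapped for all 3 genes, through ΔPod 3 and K2A 3.

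Rps6, Rps27 and Rps27a were likewise highest in ΔPod 1 and lowest in K2A 3. Rps6, whose protein is the substrate of S6 kinase, had 50.8, 92.1 and 50.6 CPM in WT, 225, 125 and 50.3 in ΔPod and 130.2, 143 and 49.1 in K2A, a range of 4.58-fold. Rps27, a zinc finger protein of the small subunit, had 141, 339 and 133 CPM in WT, 1282, 586 and 139 in ΔPod and 689, 732 and 129 in K2A. Rps27a, made as a fusion with ubiquitin, had 54.1, 124 and 49.9 CPM in WT, 617, 249 and 51.7 in ΔPod and 170.5, 169.5 and 43.3 in K2A. For Rps27 the K2A libraries 1 and 2 exceeded ΔPod 2, and for Rps27a they lay below it. Rpsa, also known as the laminin receptor, ranged 6.29-fold, and Rps26, which sits at the exit of the messenger RNA channel, only 2.80-fold. It was highest in K2A 2: 140.0, 211 and 129 CPM in WT, 225, 205 and 130.0 in ΔPod and 296, 313 and 112 in K2A.

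In the large subunit, the stalk that recruits elongation factors is built on Rplp0 with Rplp1 and Rplp2. Rplp0 had 583, 1265 and 507 CPM in WT, 4571, 1895 and 494 in ΔPod and 1939.8, 2093 and 417 in K2A. Its partners varied less, 5.62-fold for Rplp1 and 5.07-fold for Rplp2 against 11.0-fold for Rplp0. Rpl12, at the base of the stalk, ranged 18.3-fold. Rpl5 and Rpl11 bind the 5S ribosomal RNA and, when free, the p53 regulator Mdm2. Rpl5 had 73.5, 182 and 74.6 CPM in WT, 933, 315 and 64.7 in ΔPod and 204, 223 and 54.7 in K2A. Rpl11 had 71.8, 189 and 70.8 CPM in WT, 696, 262 and 64.6 in ΔPod and 283, 294 and 63.3 in K2A. ΔPod 2 stood above K2A 1 and 2 for Rpl5 and below them for Rpl11, and the range was 17.1-fold for Rpl5 and 11.0-fold for Rpl11.

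Rpl13a, known for silencing of inflammatory messenger RNAs once released from the ribosome, had 215, 593 and 196 CPM in WT, 3861, 1123 and 171 in ΔPod and 969, 970.2 and 147 in K2A, a range of 26.2-fold. Rpl41, which encodes the smallest ribosomal protein, had 222, 619 and 209 CPM in WT, 3327, 1153 and 173 in ΔPod and 769, 752 and 145 in K2A. Rpl10, a late-joining protein needed before the subunits can meet, had 131, 219 and 136 CPM in WT, 378, 254 and 132 in ΔPod and 277, 326 and 108 in K2A. All 3 genes were highest in ΔPod 1 and lowest in K2A 3. Rpl3, which reaches into the peptidyl transferase centre, ranged 6.34-fold and Rpl35, at the mouth of the exit tunnel, 21.7-fold.

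Rpl4, whose protein lines the exit tunnel, was the steadiest member. It had 496, 666 and 494 CPM in WT, 653, 659.7 and 547 in ΔPod and 686, 731 and 512 in K2A. Its libraries all lay within 1.48-fold, and it was the only tested member whose ratio stayed under 2.39, the value of Rpl29. Rpl29, also known as a heparin-binding protein, had 101, 142 and 96.1 CPM in WT, 158, 123 and 83.3 in ΔPod and 166, 176 and 73.6 in K2A. Rpl28 ranged 2.55-fold; it was named after its values were seen. The sequences printed above for Rpl4 and Rpl28 both hold a long pyrimidine run, as those of Rpl35 and Rpl13a do. The run crosses the annotated start in Rpl28 and Rpl35, lies upstream of it in Rpl4 and begins after it in Rpl13a.

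The gene with the most counts, not corrected for length, differed between libraries. Rplp0 was first among the members' counts in all 3 WT libraries (4.65% to 5.20% of them), Rps3 in ΔPod 1 and 2 and K2A 1 and 2 (5.91% to 8.47%), and Rpl4 in ΔPod 3 and K2A 3 (5.24% and 5.44%). Rpl4 held 0.702% of the members' counts in ΔPod 1. The 10 leading genes of WT 1 were also the 10 of ΔPod 3 and K2A 3, whereas 6 of them were among the 10 of ΔPod 1 and 6 among those of ΔPod 2. Per kilobase of merged exons, the mean WT level was highest for Rplp1 (809.8 CPM per kb), and it was 622 for Rps15, named after its values were seen, 485 for Rpl8, 473 for Rplp0, 8.19 for Rpl6l, 7.92 for Rpl32l and 2.91 for Rpl3l, the lowest, with a median of 78.0 over the 81 genes.

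As a share of the members' summed counts, few genes separated the groups. Such a share takes out only a change of equal size in all members. Shares still differed between libraries, as for Rpl4 with 0.702% in ΔPod 1 and 5.44% in K2A 3. In ΔPod against WT the libraries did not overlap for 3 of 81 (3.70%): Rpl22 was higher, and Rpl13 and Rpl3l were lower. Rpl22, which binds viral and cellular hairpin RNAs and is needed for T cell development, took 1.14%, 1.07% and 1.14% in WT and 1.33%, 1.36% and 1.21% in ΔPod. In K2A against WT 10 of 81 did not overlap (12.3%). Rpl7a, Rpl32l and Rpl26 were higher, and 7 genes were lower, with Rpl3l, Rpl5 and Rpsa having the largest log2 differences among these. Rpl7a took 2.01%, 1.84% and 1.99% in WT, 1.74%, 1.77% and 1.96% in ΔPod and 2.28%, 2.35% and 2.03% in K2A. In K2A against ΔPod 4 of 81 did not overlap (4.94%): Rpl7a was higher and Rpl5, Rps27a and Rpl22 were lower. Rpl22 took 0.956%, 0.931% and 1.15% in K2A. No gene-wise test was run on these shares, which depend on one another. The percentages are of the 81 members alone, with no share over other genes beside them. With labels drawn at random, 3 and 3 libraries fail to overlap with a probability of 0.1. The counts and the genes named are therefore descriptions only.

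Among the paralogues whose symbols meet the rule, Rpl3l, Rpl10l and Rpl39l are usually bound to certain tissues. Rpl3l, the copy of Rpl3 found in heart and skeletal muscle, lies at chr17:24727820-24736143 (mm10, plus strand, 10 exons in the main transcript). It had 4.46, 7.04 and 2.84 CPM in WT, 5.03, 3.75 and 0.826 in ΔPod and 2.26, 2.49 and 1.84 in K2A. K2A lay wholly below WT, while ΔPod overlapped both groups. As a share of the members' counts it was 0.0378%, 0.0290% and 0.0261% in WT, 0.00540%, 0.00991% and 0.00791% in ΔPod and 0.00630%, 0.00650% and 0.0195% in K2A, so that all 6 mutant libraries lay below the 3 WT libraries. It was the member least like the others, with Pearson's r of 0.47 between its log2 CPM and the mean of the other members over the 9 libraries, and 75 of 81 members had r over 0.95.

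Rps27l, a p53 target that can replace Rps27, had 128, 304 and 122 CPM in WT, 1521, 485 and 85.4 in ΔPod and 447, 444 and 87.2 in K2A, highest in ΔPod 1 and lowest in ΔPod 3. Rps4l, annotated as a transcribed processed pseudogene, had 21.2, 28.5 and 25.0 CPM in WT, 33.8, 33.4 and 17.1 in ΔPod and 40.4, 41.7 and 14.4 in K2A. It ranged 2.90-fold, and Rps4x, the protein-coding gene on the X, 3.43-fold. Rpl10l, a testis copy of Rpl10, had 0 counts in every library. A count of 0 over a group allows up to 0.0269 CPM in WT, 0.0250 in ΔPod and 0.0279 in K2A (3 counts, counting error only). Rpl39l, a germ cell copy of Rpl39, had 4 counts in all: 1 in WT 2, 2 in ΔPod 2 and 1 in K2A 1. Both were left out by the filter. Of the 83 genes, 60 have annotated pseudogenes, 298 together, and how reads shared with them were counted is not stated, so single values of these members are uncertain.

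In ΔPod against WT, ribosomal protein genes stood higher as a group average, but no member passed the test. Of the 81 tested genes 0 were called at a false discovery rate of 0.05 (edgeR's quasi-likelihood test), where 0.985% of all genes were called; DESeq2 also called 0 members, where it called 3.06% of all genes higher and 2.46% lower. At an unadjusted p below 0.05 there were 4 members, all higher (9.24% of all genes were higher at that level): Rps24, Rpl22, Rps12 and Rps27a. The fitted log2 fold change was above 0 for 80 of 81 members, against 53.4% of all genes, and the members' median was 1.48, against 0.08 for all genes. No member had groups that did not overlap, against 8.73% of all genes that lay wholly higher and 9.47% wholly lower. Small subunit genes had a median of 1.76 and large subunit genes of 1.34. Without ΔPod 1 the members' median was 0.60.

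The largest fitted changes belonged to Rps24 (log2 fold change 2.66, standard error 1.11, adjusted p = 0.351, edgeR), Rpl17 (2.47, standard error 1.14) and Rpl35 (2.39, standard error 1.06). Rps12, in the beak of the small subunit, was at 2.34 and Rpl22 at 1.85. At the other end were Rpl3l (-0.58, standard error 0.61, adjusted p = 0.629, edgeR), Rpl29 (0.10, standard error 0.40) and Rpl4 (0.17, standard error 0.27). For Rps24, Rpl17 and Rpl35 ΔPod 3 lay close to the lower WT libraries and ΔPod 1 far above them all, and the standard errors exceeded 1.

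**Figure D3:**
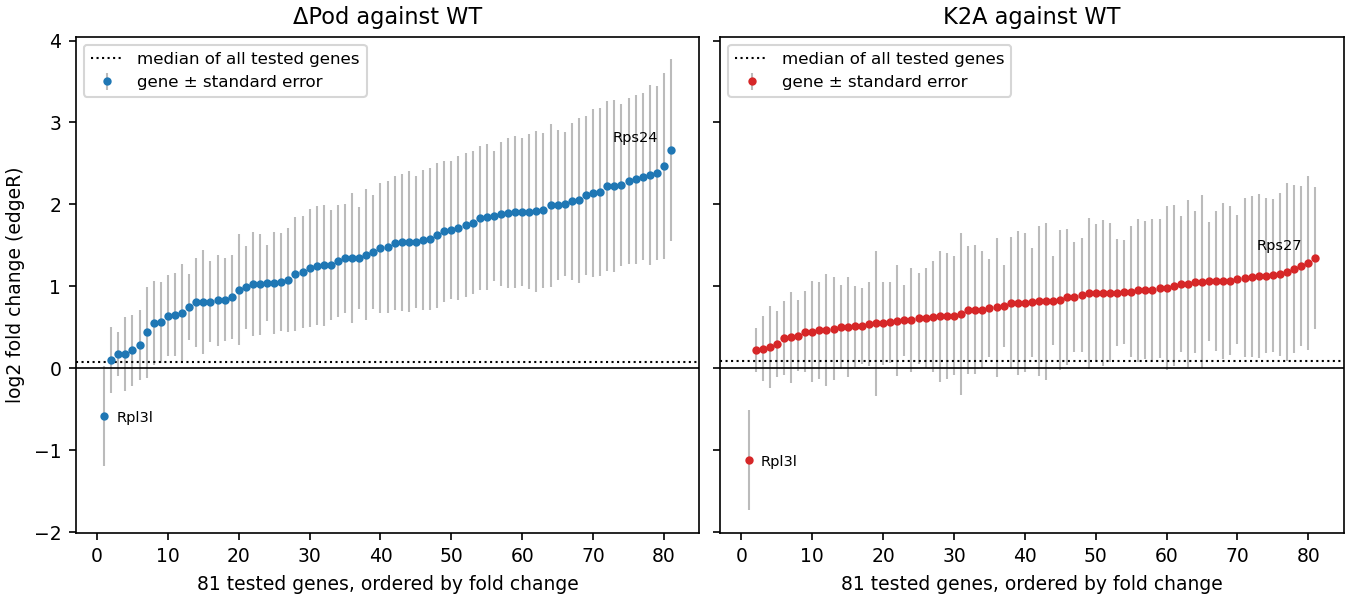
Fitted log2 fold change of the 81 tested ribosomal protein genes (points, ordered) with standard errors (grey bars), for ΔPod against WT on the left and K2A against WT on the right; the dotted line is the median of all 18067 tested genes. In each comparison 80 of 81 values lie above 0 and Rpl3l below it, and none passed the adjusted test.

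In K2A against WT the same count of members, 80 of 81, was fitted above 0 (55.6% of all genes), and again 0 of 81 were called by edgeR or DESeq2, where edgeR called 0.847% of all genes; DESeq2 called 2.59% higher and 2.44% lower. At an unadjusted p below 0.05 edgeR gave 0 members, against 7.01% of all genes higher and 3.61% lower. The comparison shares its WT libraries with the one before, so the counts are not independent. The members' median was 0.80, against 0.09 for all genes, with 0.85 for small and 0.71 for large subunit genes. One member, Rpl3l, had groups that did not overlap, being lower (9.18% of all genes were), and none lay wholly higher, against 11.0% of all genes. The largest fitted values were those of Rps27 (1.34, standard error 0.87), Rps24 (1.28, standard error 1.06) and Rpl12 (1.25, standard error 0.98). Rps28, at the messenger RNA exit, had the third smallest p with a value of 0.82 (adjusted p = 0.689, edgeR). The lowest were Rpl3l (-1.12, standard error 0.61, adjusted p = 0.595, edgeR), Rpl4 (0.22) and Rpl23, another Mdm2 binder (0.24). Without WT 2 the median was 1.28 and without K2A 2 it was 0.51.

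Between the mutants, K2A against ΔPod, 6 of 81 members were fitted above 0 (48.8% of all genes) and the members' median was -0.66, against -0.01 for all genes. EdgeR called 0 members and 0% of all genes at a false discovery rate of 0.05; at an unadjusted p below 0.05 it gave 245 genes higher and 119 lower in K2A, 1.36% and 0.659%, with 0 members among them. DESeq2 called 0.0443% of all genes higher and 0.0609% lower, 0 of them members. With the replicate number as a block on these 6 libraries, edgeR called 9 genes, 0 of them members, and the members' median was -0.45. No member had groups that did not overlap, against 3.51% of all genes wholly higher and 1.61% wholly lower. The lowest fitted values were those of Rpl41 (-1.48, standard error 1.01), Rpl5 (-1.44, standard error 0.90) and Rps24 (-1.38, standard error 1.06), and the highest those of Rps26 (0.36, standard error 0.43), Rps4l (0.19) and Rpl29 (0.19). The direction rested on ΔPod 1: without it the median was 0.21. Without ΔPod 3 it was -1.13 and without K2A 3 it was -0.25.

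With each library's length slope as a covariate in the fit, the members' medians became 0.23 in ΔPod against WT, -0.05 in K2A against WT and -0.27 in K2A against ΔPod. Standard errors shrank with it: Rps24 in ΔPod against WT was at 0.62 with a standard error of 0.21 (adjusted p = 0.0761, edgeR). The slope was estimated from these libraries' own counts, and the fit takes it as known. In this fit 1 member was called higher in ΔPod, Rpl36a, at 0.47 with adjusted p = 0.0466 (edgeR), where 6.11% of all genes were called higher; it was named after its values were seen. Rpl36a had 24.8, 49.0 and 24.8 CPM in WT, 146, 76.0 and 29.2 in ΔPod and 56.7, 60.3 and 23.1 in K2A, so that the groups overlapped. In K2A against WT 1 member was called lower, Rpl3l, at -1.46 with adjusted p = 0.0247 (edgeR), where 8.37% of all genes were called lower. Rpl3l in ΔPod against WT was at -1.32 with adjusted p = 0.0515 (edgeR). Over all 15 alternative fits Rpl3l kept a negative value in both comparisons with WT, from -1.46 to -0.75 in K2A and from -1.32 to -0.16 in ΔPod, and passed in 1 and 0 of them.

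The X-linked members can be read against the sex of the mice, which is not labelled. The 4 Y-linked genes listed (Ddx3y, Eif2s3y, Kdm5d and Uty) summed to 94.4 to 119 CPM in WT, to 0 in each ΔPod library and to at most 0.682 in K2A, and all 4 were called lower in both comparisons, so sex and genotype cannot be told apart. Rps4x had 199, 294 and 193 CPM in WT, 602, 413 and 211 in ΔPod and 464, 522 and 176 in K2A. Rpl39, at the exit tunnel, had 55.4, 111 and 55.5 CPM in WT, 303, 174 and 52.5 in ΔPod and 201, 216 and 47.1 in K2A. Fitted log2 fold changes in ΔPod and K2A were 0.84 and 0.76 for Rps4x, 1.25 and 1.06 for Rpl39, 0.66 and 0.55 for Rpl10 and 1.35 and 0.51 for Rpl36a. None was called, and all 4 genes lie within the range of the autosomal members.

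Rack1 and Fau, ribosome components outside the symbol rule, were also highest in ΔPod 1. Rack1, the scaffold protein of the small subunit, had 473, 1104 and 424 CPM in WT, 3995, 1549 and 395 in ΔPod and 1545, 1694 and 352 in K2A. Fau, the precursor of Rps30, had 124, 279 and 108 CPM in WT, 1022, 402 and 97.2 in ΔPod and 382, 401 and 99.3 in K2A. Fitted log2 fold changes were 1.57 for Rack1 and for Fau in ΔPod and 0.84 and 0.79 in K2A, and neither gene was called. The 5 other genes whose log2 CPM followed the members' mean most closely over the 9 libraries were Rpl10a-ps1, Nip7 (a ribosome biogenesis factor), Rack1, Gm20538 and Dph3 (of the diphthamide pathway that modifies Eef2), with Pearson's r from 0.9992 to 0.9995. Such closeness was common: 2419 of 17986 other genes had r over 0.95.

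Genes with TOP messenger RNAs did not all follow. Eef1a1, the factor that delivers aminoacyl-tRNA, had 3581, 6915 and 3253 CPM in WT, 21369, 9822 and 3125 in ΔPod and 9473, 10754 and 3146 in K2A, highest in ΔPod 1 like most members. Eef2, the translocation factor and a TOP messenger RNA too, ran the other way: 2328, 1609 and 2089 CPM in WT, 392, 1002 and 2070.2 in ΔPod and 1162, 1337 and 2094 in K2A. It was lowest in ΔPod 1, where the members were highest. Larp1, the TOP-binding repressor, had 129, 50.1 and 154 CPM in WT, 8.25, 22.6 and 143 in ΔPod and 13.5, 13.3 and 139 in K2A, again opposite to the members in every group. None of these passed the test: in ΔPod the fitted values were 1.32 for Eef1a1, -0.80 for Eef2 and -0.94 for Larp1 (adjusted p = 0.414, 0.483 and 0.687, edgeR). Npm1, a nucleolar chaperone, ranged 2.81-fold and Tpt1, an abundant TOP transcript, 6.26-fold, both highest in ΔPod 1.

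**Figure D4:**
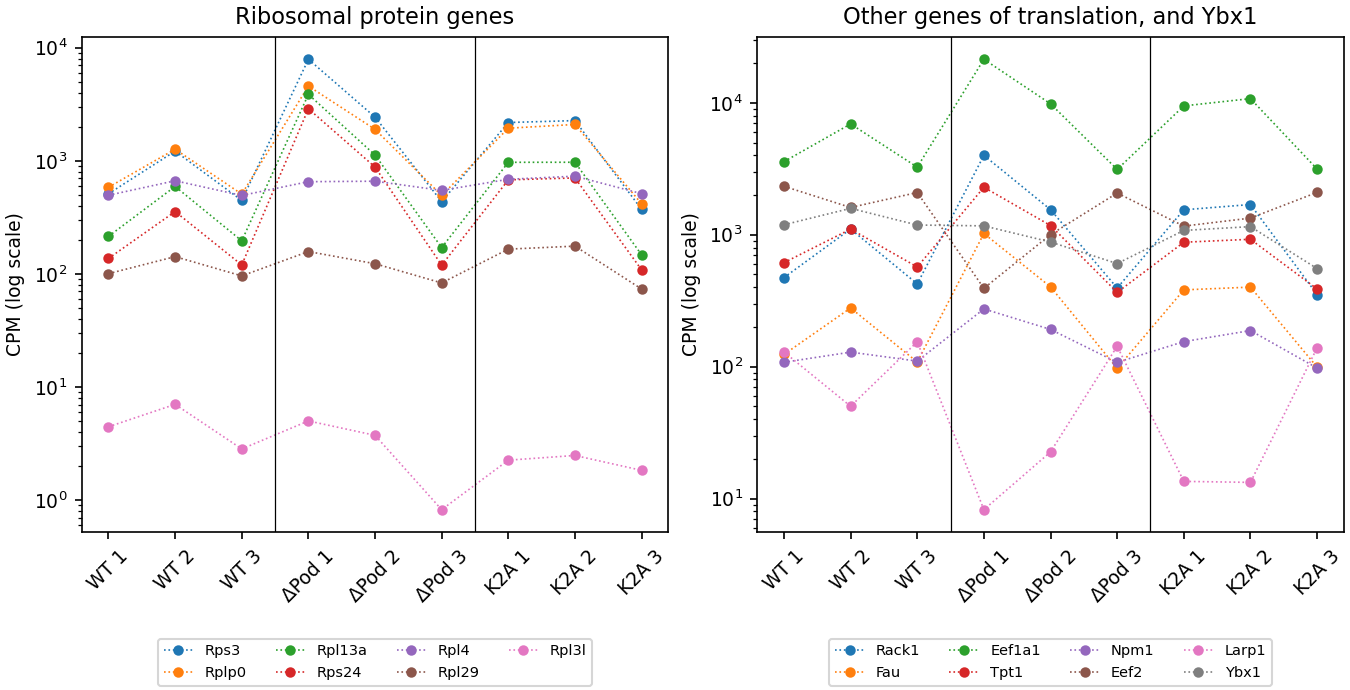
CPM on a log scale in each of the 9 libraries for 7 ribosomal protein genes (left) and for other genes of translation with Ybx1 (right); dotted lines only join the libraries for the eye. Rps3, Rplp0, Rpl13a and Rps24 peak in ΔPod 1, Rpl4 and Rpl29 stay nearly level, and Eef2 and Larp1 are lowest in ΔPod 1.

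No gene of the following lists was called in any of the 3 comparisons (edgeR), and the medians differed between lists; the Y-linked Eif2s3y, a subunit gene of an initiation factor, was counted with the Y-linked genes above. In ΔPod against WT the median was 1.61 for the 95 tested ribosomal protein pseudogenes of 322 listed, 1.09 for 76 nuclear oxidative phosphorylation subunits, 0.74 for 78 mitochondrial ribosomal proteins, 0.73 for 27 other TOP messenger RNAs, 0.67 for 7 elongation factors and 0.39 for 38 proteasome subunits. It was -0.10 for 36 initiation factors, 0.17 for 13 genes of RNA polymerase I, -0.38 for 45 ribosome biogenesis factors, -0.22 for 19 TOP and mTORC1 regulators and 0.37 for 12 genes of p53 and nucleolar stress. In K2A against WT the same lists had medians of 0.87, 0.48, 0.36, 0.45, 0.38 and 0.15, then 0.10, 0.06, -0.17, -0.23 and 0.34. The lists of the mitochondrial ribosome, the respiratory chain and the proteasome were, like the members, highest in ΔPod 1, and lowest in K2A 3 or, for the proteasome, in ΔPod 3. Ribosome biogenesis factors, which assemble the subunits in the nucleolus, had 16 of 45 fitted values above 0 in ΔPod and 17 of 45 in K2A. Their summed CPM was nonetheless highest in ΔPod 1, at 2099, with WT 2 next at 1801. The TOP and mTORC1 regulators summed to 1510 CPM in ΔPod 1, between 952 in K2A 1 and 1525 in WT 3.

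**Figure D5:**
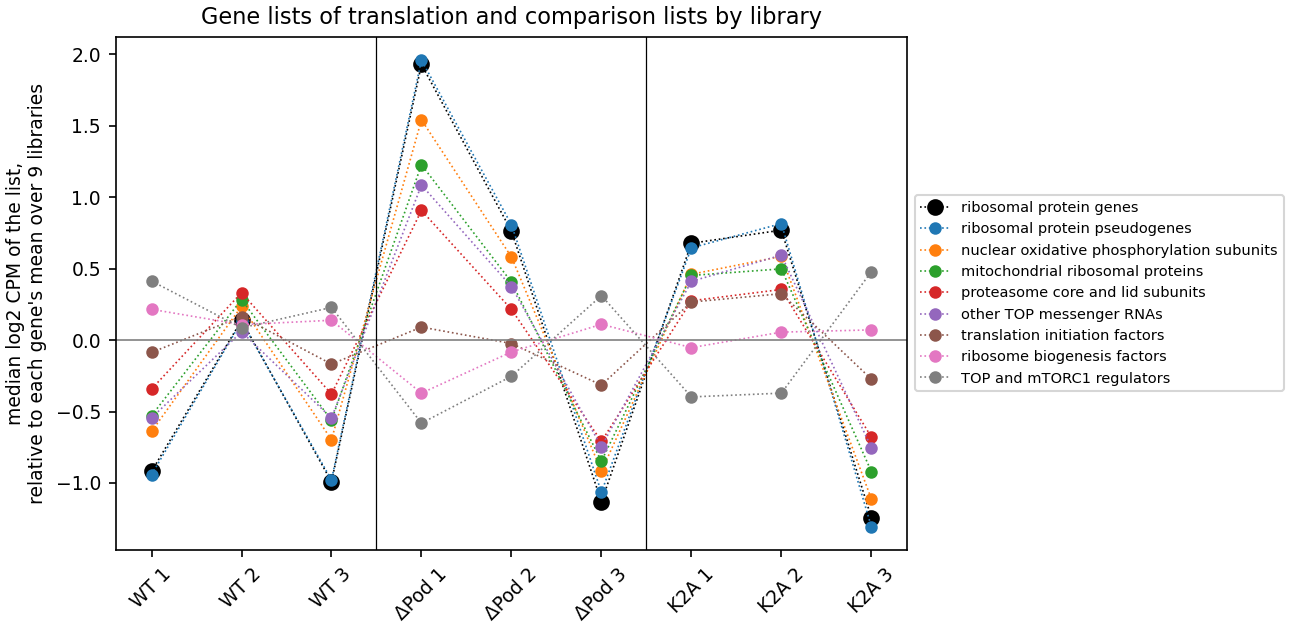
Median over the genes of each list of log2 CPM relative to the gene's mean over the 9 libraries, by library. Ribosomal protein genes (black) and their pseudogenes reach the highest median in ΔPod 1 (1.93 for the members) and the lowest in K2A 3 (-1.24). Biogenesis factors and TOP and mTORC1 regulators have their lowest medians in ΔPod 1, though not their lowest sums of CPM.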

How the data were processed

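Whole-kidney polyadenylated RNA of 9 libraries (3 WT, 3 ΔPod, 3 K2A) was sequenced after ScriptSeq v2 library preparation, per the labels' protocols. The deposited values are raw counts per gene symbol. STAR 2.7.3a and featureCounts 2.0.1 are named per the submitters' processing notes, with build mm10, and so is DESeq2 1.30.0; the strand and multi-mapping settings are not given in the sources used here. The WT libraries stand in both deposited tables (52182 and 52169 symbols); 52163 symbols are in both, and 3 whose WT counts differed were left out. No column of another sample was present.

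Counts were tested with edgeR 4.0.16 (R 4.3.3): filterByExpr, TMM scaling, 1 quasi-likelihood fit over the 9 libraries with group as the only term, Benjamini-Hochberg adjustment over 18067 genes and a threshold of 0.05. The step was tested on simulated counts with 200 genes changed by a log2 value of 2 and a dispersion (spread beyond counting error) of 0.05. It recovered 96% of them, and 5.42% of its calls were false. These counts held no variation shared by many genes within a group, so that recovery does not apply to the members. CPM values are TMM-scaled; levels are given library by library, and shares of counts also as mean ± SD of 3 libraries. Depth was 30776806 to 46852490 counts a library; intervals and floors cover counting error only. The transcript length slope came from non-member genes (GENCODE, mm10). Alternatives were DESeq2 1.42.0, other scalings and filters, the length slope as a covariate, a replicate block and leaving out each library. Whether replicate numbers pair the libraries was checked by correlating the deviations of same-numbered libraries from their group means: r ran from -0.62 to 0.71 for WT with ΔPod, from -0.54 to 0.76 for WT with K2A and from 0.40 to 0.85 for ΔPod with K2A. Only in the last comparison was every pair over 0.1, and there the block was also fitted on the 6 libraries alone, an alternative chosen after seeing the data; the labels do not say what a number marks. The members and lists were chosen with earlier results of these data known, so list counts and medians carry no test. Genes were named by rule: fixed members of known role, the paralogues, the 3 members at each end of level, fold change and p in each comparison, members whose share of the pool separated the groups, and the 5 genes most alike; exceptions are stated. Start-site sequences are from RefSeq (GRCm38.p6).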

Additional observations from a re-analysis of the deposited data

How the results depend on the processing

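Of the alternative values for the group results (members called, median fold change and share of counts in 3 comparisons), 116 stayed on the same side of the threshold or within the spread between replicates. The other 3 came from the length slope as a covariate. They were a median of 0.23 in ΔPod against WT, 1 member called there and 1 in K2A against WT. The cause was not tested. For medians that spread was 1.14, more than the main medians of 0.80 in K2A against WT and -0.66 in K2A against ΔPod. A median could thus change sign and still count among the 116. Those of -0.05 (K2A against WT, length slope) and 0.21 (K2A against ΔPod, without ΔPod 1) did so. The medians under the alternatives that keep all libraries ran from 0.23 to 1.73 in ΔPod against WT, from -0.05 to 0.99 in K2A against WT and from -0.77 to -0.27 in K2A against ΔPod. Leaving out each library in turn gave medians of 0.60 to 1.93, 0.51 to 1.28 and -1.13 to 0.21, share differences of 1.11 to 4.44, 0.836 to 2.27 and -3.12 to 0.214 percentage points, and 0 members called throughout; with 1 group at 2 libraries the fit assumes that they vary like the others. Among single genes, Ybx1 passed with the length slope as a covariate in ΔPod (-0.96, adjusted p = 0.000882, edgeR) and in K2A (-0.85, adjusted p = 0.00157, edgeR), as did Larp1 (-0.70) and Tpt1 (-0.64) in K2A. That fit called 2552 genes in ΔPod against WT and 2878 in K2A against WT. Its slope was estimated from the same libraries' counts, and the p-values take it as known. With the replicate number as a block, the medians were 1.09, 0.51 and -0.54, 0 members were called, and the calls over all genes were 270 in ΔPod against WT and 232 in K2A against WT, against 178 and 153 without it. Same-numbered ΔPod and K2A libraries deviated together in 3 of 3 pairs, though ΔPod 1 correlated better with K2A 2 (r = 0.774 against 0.760) and ΔPod 2 better with K2A 1 (r = 0.443 against 0.403); the block on these 6 libraries gave a median of -0.45, 0 members called and 9 genes called, against 0 without it. Rpl10l and Rpl39l had too few counts to be tested.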
